A study of Mus musculus with 12 samples.

Results

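A set of 10 genes that mark T lymphocytes and natural killer (NK) cells was followed in mouse kidney after angiotensin II hypertension: Cd3d, Cd3e, Cd3g, Cd4, Cd8a, Lck, Il2rb, Il2ra, Nkg7 and Ccl5. They were taken by gene symbol from a list that was chosen with earlier results of these data known. The whole-kidney table held 10 of the 10 among its 15361 genes, and the table of F4/80+ cells held 3 of the 10 (Cd4, Cd8a and Ccl5) among its 18145 genes. The other 7 were not analysed here in F4/80+ cells.

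The mice had been made with CRISPR-Cas9 to be homozygous for either the arginine-encoding (Arg/Arg) or the tryptophan-encoding (Trp/Trp) allele of a human polymorphism in Sh2b3, the gene of the adaptor protein LNK. All of them had received angiotensin II for 4 weeks, so no library without the hormone was analysed here. Each genotype gave 3 libraries of whole kidney and 3 of renal F4/80+ cells, labelled as biological replicates, which makes 12 libraries in all. F4/80+ cells, which the labels call macrophages, were taken from separate kidneys with a Percoll gradient and anti-F4/80 microbeads. F4/80 is a surface protein of mouse macrophages.

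CD3 gamma, delta and epsilon are invariant chains that carry the signal of the T cell receptor. CD4 and CD8 are the coreceptors that divide T cells into helper and cytotoxic classes, and the kinase LCK is bound to them and starts receptor signalling. Interleukin 2 and interleukin 15 sustain T and NK cells through a shared beta chain, whereas the alpha chain of the interleukin 2 receptor marks activated and regulatory T cells. T cells enter the kidney in angiotensin II hypertension, and mice without lymphocytes are known for a blunted pressor response. LNK restrains cytokine signalling through JAK kinases in blood cells.

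The Cd3 genes lie side by side on chromosome 9 (mm10 coordinates, as in the kidney table and the GENCODE M21 annotation). Cd3g (9:44969572-44980431, minus strand) and Cd3d (9:44981786-44987339, plus strand) are divergent, with 1354 bp between them. Cd3e (9:44998740-45009627, minus strand) lies 11400 bp beyond Cd3d, and the cluster spans 40.1 kb. The 250 bases before the RefSeq start of each (GRCm38.p6) are given 5′ to 3′ on the gene's own strand because these neighbours include the members that depended least (Cd3d) and most (Cd3g) on 1 library.
Cd3d, chr9:44981536-44981785, plus strand: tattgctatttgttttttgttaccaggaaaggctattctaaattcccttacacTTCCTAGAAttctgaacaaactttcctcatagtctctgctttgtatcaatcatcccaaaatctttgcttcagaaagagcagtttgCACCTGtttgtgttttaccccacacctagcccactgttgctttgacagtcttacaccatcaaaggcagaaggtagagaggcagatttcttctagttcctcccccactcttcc
Cd3g, chr9:44980432-44980681, minus strand: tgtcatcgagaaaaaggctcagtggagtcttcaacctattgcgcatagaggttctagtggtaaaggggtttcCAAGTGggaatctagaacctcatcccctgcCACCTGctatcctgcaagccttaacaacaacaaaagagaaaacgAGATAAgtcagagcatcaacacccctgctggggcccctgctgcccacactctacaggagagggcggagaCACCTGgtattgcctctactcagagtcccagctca
Cd3e, chr9:45009612-45009861, minus strand: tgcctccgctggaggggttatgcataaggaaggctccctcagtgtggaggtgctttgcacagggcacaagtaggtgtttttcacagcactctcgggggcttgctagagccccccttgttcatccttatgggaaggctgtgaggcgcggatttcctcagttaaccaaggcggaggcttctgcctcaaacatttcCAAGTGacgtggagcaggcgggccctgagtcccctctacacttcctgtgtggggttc
Capitals mark matches, on either strand, to an E box (CANNTG), a STAT motif (TTCNNNGAA) and a GATA motif (AGATAA), and no matches within these 3 windows overlapped. Cd3d held 1 STAT match that begins at position -197 from the start and 1 E box at -112. Cd3g held 3 E boxes at -178, -148 and -35 and 1 GATA match at -104. Cd3e held 1 E box at -57. Among 32851 RefSeq windows of this length, 66.2% held an E box, 7.02% the STAT motif, 9.99% the GATA motif and 14.0% a RUNX core (TGTGGT), which none of the 3 Cd3 windows held. A match is a run of letters and was not tested as a binding site. The table held windows for 7 of the 10 genes, and not for Cd4, Il2rb or Ccl5.

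The 6 kidney libraries had 19586919 to 54686600 counts, of which 17785672 to 49994052 fell on nuclear protein-coding genes. Levels are given as counts per 1000000 of the latter (CPM). The tubule gene Umod, which encodes uromodulin, had 2615 to 2872 CPM in them, whereas the 10 members had 0.167 to 4.77 CPM. The first Trp/Trp kidney stood apart from the rest, at 39.6 on a first principal component that held 40.7% of the variance, against -12.9 to -3.93 for the other 5. Results are therefore given with and without it. Sh2b3 itself averaged 35.7 ± 4.51 CPM (SD, n = 3) in Arg/Arg and 39.9 ± 2.35 (n = 3) in Trp/Trp kidney, but the edit changes an amino acid, so its level does not check the labels.

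In kidney, each of the 10 genes had a higher mean in Trp/Trp than in Arg/Arg mice, with log2 fold changes of 0.68 to 1.54. None passed edgeR's test over all genes, and DESeq2 called 1, Il2rb. Their median log2 fold change was 1.02, and that of all 14464 genes tested was 0.00. Without the first Trp/Trp library the median of the 10 was 0.66, and 4 of them lost at least 50% of their difference. In whole tissue, more cells of a type and more RNA per cell cannot be told apart.

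Counts were low throughout. The 60 member values in kidney ran from 5 to 165 counts, and 41 of them were under 50. At 3 counts the level is 0.0600 CPM in the deepest library and 0.169 CPM in the shallowest, the third Trp/Trp library. All 10 genes passed the low-count filter, Cd3d with 2 and Il2ra with 1 of the 3 Arg/Arg libraries above its level. A fit without the filter gave positive differences for 10 of 10. It used the same counts of these genes, so it could not test what the filter does. Intervals printed here are exact 95% Poisson intervals, and they cover counting error only.

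Cd3d, the CD3 delta chain, had 0.351, 0.380 and 0.234 CPM in the Arg/Arg kidneys and 1.13, 0.802 and 1.01 CPM in the Trp/Trp kidneys (7 to 39 counts). Every Trp/Trp kidney was above every Arg/Arg kidney. The means were 0.322 ± 0.0772 and 0.981 ± 0.165 CPM (SD, n = 3 each), a log2 fold change of 1.54 ± 0.33 (SE). Without the first Trp/Trp library it was 1.41 ± 0.38, so Cd3d lost 8.20% of its difference. The next 2 genes of the cluster did otherwise.

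Cd3e, the epsilon chain, had 0.702, 0.420 and 0.468 CPM in Arg/Arg and 1.50, 0.637 and 0.394 CPM in Trp/Trp kidneys (7 to 52 counts). The first Trp/Trp kidney was the highest and the third the lowest of the 6, so the groups overlapped. The log2 fold change was 0.71 ± 0.47 with that first library and 0.07 ± 0.41 without it. Cd3e shares 135 bp of exon with an antisense gene, Gm48719, and whether the counting used strand is not given in the sources used here.

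Cd3g, the gamma chain, had 0.893, 0.420 and 0.903 CPM in Arg/Arg and 2.23, 0.779 and 0.675 CPM in Trp/Trp kidneys (12 to 77 counts). Only the first Trp/Trp kidney lay above the Arg/Arg range. The log2 fold change was 0.77 ± 0.50 over the 6 libraries and 0.06 ± 0.41 without that one. Summed, the 3 Cd3 genes reached 1.95, 1.22 and 1.61 CPM in Arg/Arg and 4.86, 2.22 and 2.08 CPM in Trp/Trp kidneys. Of the 3 Cd3 genes, only Cd3d was above all the Arg/Arg values in Trp/Trp kidneys 2 and 3.

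Cd4 (6:124864692-124888221, minus strand), the helper coreceptor, had 1.31, 0.700 and 0.602 CPM in Arg/Arg and 3.27, 0.944 and 1.18 CPM in Trp/Trp kidneys (18 to 113 counts). The first Trp/Trp kidney had an interval of 2.69 to 3.93 CPM, above the upper bound of each other kidney, of which the highest was 1.81 CPM in the third Trp/Trp kidney. The other 5 kidneys overlapped between genotypes. Its log2 fold change was 1.04 ± 0.50, and 0.27 ± 0.39 without the first Trp/Trp library. Cd4 is also expressed by some macrophages and dendritic cells.

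Cd8a (6:71373427-71379173, plus strand), the alpha chain of the cytotoxic coreceptor, had 1.88, 1.20 and 1.81 CPM in Arg/Arg and 3.30, 2.76 and 2.59 CPM in Trp/Trp kidneys (46 to 117 counts). The groups did not overlap, and the 3 Trp/Trp kidneys were close to each other. The means were 1.63 ± 0.374 and 2.88 ± 0.370 CPM (n = 3 each), a log2 fold change of 0.82 ± 0.23. Without the first Trp/Trp library it was 0.75 ± 0.25.

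The count ratio of Cd4 to Cd8a was 0.695, 0.583 and 0.333 in Arg/Arg and 0.991, 0.342 and 0.457 in Trp/Trp kidneys. It was highest in the first Trp/Trp kidney and overlapped between genotypes. The ratio of Cd8a to the Cd3 sum was 0.967, 0.984 and 1.13 in Arg/Arg and 0.679, 1.24 and 1.24 in Trp/Trp kidneys. The same kidney was the lowest for this ratio and the other 2 Trp/Trp kidneys were the highest. Dendritic cells can carry Cd8a too.

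Lck (4:129548344-129573641, minus strand), the coreceptor-bound kinase, had 1.12, 1.32 and 1.51 CPM in Arg/Arg and 4.42, 1.84 and 1.69 CPM in Trp/Trp kidneys (30 to 153 counts). The groups did not overlap, but the gap between the third Arg/Arg and the third Trp/Trp kidney was narrow. For Lck the log2 fold change was 1.00 ± 0.37, and 0.44 ± 0.25 without the first Trp/Trp library.

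**Figure D1:**
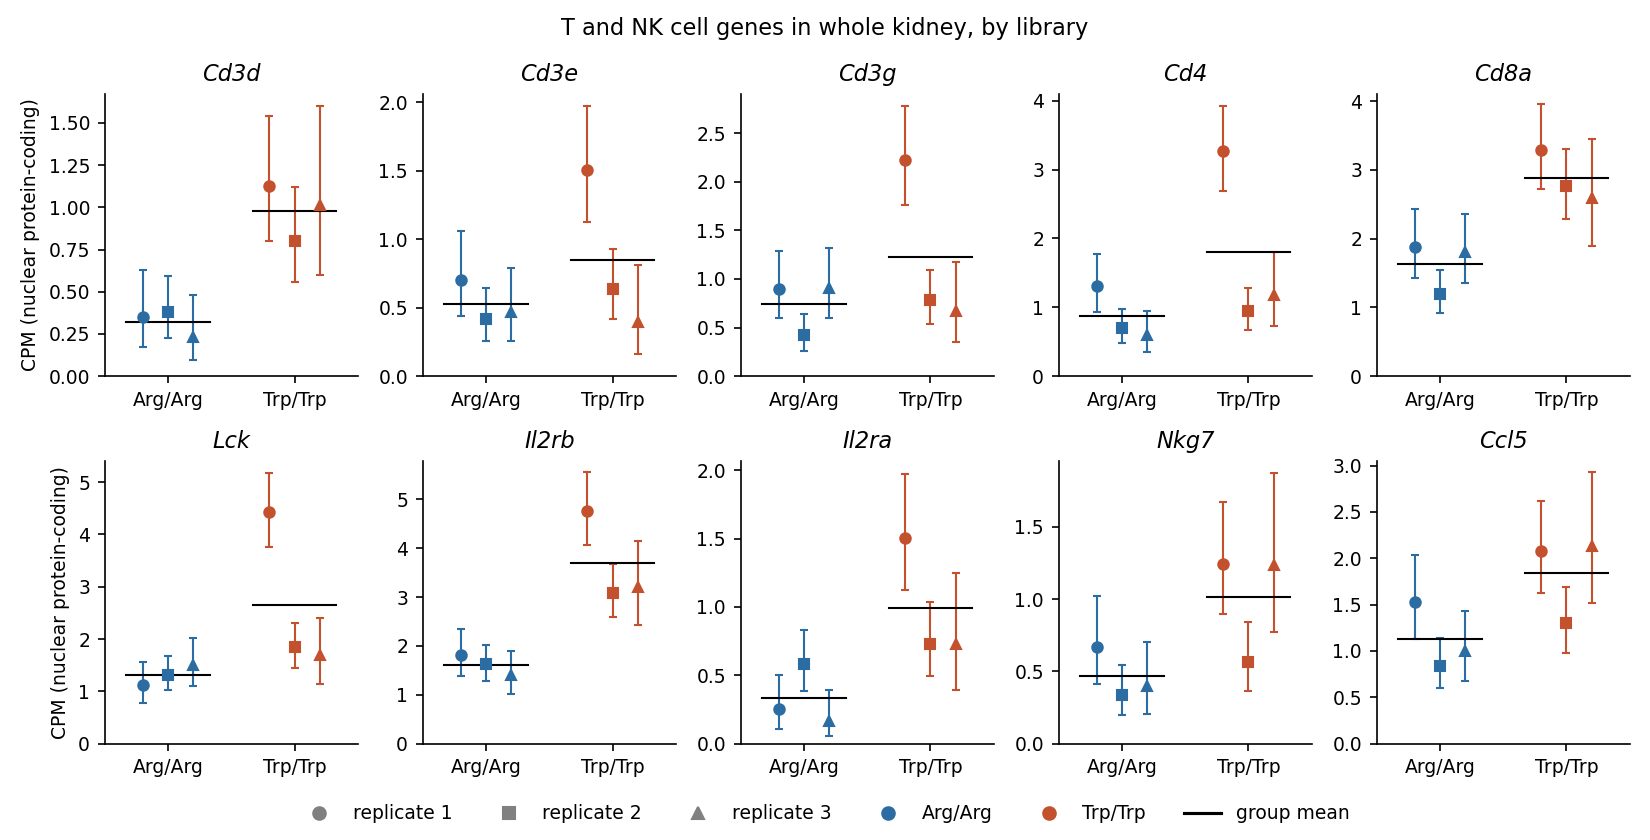
Levels of the 10 genes in the 6 kidney libraries, in CPM over nuclear protein-coding counts on a linear axis that starts at 0. Points are libraries with exact 95% Poisson intervals, and black lines are group means. For 9 of the 10 genes the first Trp/Trp library (circle) is the highest point, and the exception is Ccl5.

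Il2rb (15:78479256-78495271, minus strand), the beta chain shared by the interleukin 2 and interleukin 15 receptors, had 1.82, 1.62 and 1.41 CPM in Arg/Arg and 4.77, 3.09 and 3.20 CPM in Trp/Trp kidneys (42 to 165 counts). The groups were well apart. The means were 1.61 ± 0.207 and 3.69 ± 0.938 CPM (n = 3 each), a log2 fold change of 1.17 ± 0.23, or 2.25-fold. By unadjusted p (edgeR, 0.000606) Il2rb had rank 4 among all the genes tested. Without the first Trp/Trp library the log2 fold change was 0.96 ± 0.21.

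Il2rb was the only one of the 10 that any tool called, and the call depended on the tool. edgeR's adjusted p was 0.843, DESeq2's was 0.0169 on the same counts, and the authors' deposited table gives 0.0161. The log2 fold change of Il2rb there is 1.17, with its sign turned here to Trp/Trp over Arg/Arg. That table has an adjusted p for 5 of the 10 genes, and it calls 0.103% of the genes that have one. Leaving out 1 library, DESeq2's adjusted p was 0.0493, 0.386 and 0.130 without Arg/Arg replicates 1, 2 and 3, and 0.0171 and 0.0429 without Trp/Trp replicates 2 and 3. Without Trp/Trp replicate 1, DESeq2 gave it no adjusted p. The call was thus lost without either of 2 Arg/Arg libraries.

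Il2ra (2:11642807-11693193, plus strand), the alpha chain of the interleukin 2 receptor, had 0.255, 0.580 and 0.167 CPM in Arg/Arg and 1.50, 0.732 and 0.731 CPM in Trp/Trp kidneys (5 to 52 counts). The groups did not overlap, but the second Arg/Arg kidney, with 29 counts, came close to the lower Trp/Trp kidneys. Il2ra had a log2 fold change of 1.46 ± 0.49, and 1.00 ± 0.49 without the first Trp/Trp library. Without the second Arg/Arg library it was 2.20.

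Nkg7 (7:43437073-43438249, plus strand), a granule protein of NK and cytotoxic T cells, had 0.670, 0.340 and 0.401 CPM in Arg/Arg and 1.24, 0.566 and 1.24 CPM in Trp/Trp kidneys (12 to 43 counts). The second Trp/Trp kidney lay within the Arg/Arg range and the other 2 above it. Nkg7 had a log2 fold change of 1.07 ± 0.42, and 0.84 ± 0.47 without the first Trp/Trp library.

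Ccl5 (11:83525778-83530518, minus strand), a chemokine released by activated T and NK cells that attracts other leukocytes, had 1.53, 0.840 and 1.00 CPM in Arg/Arg and 2.08, 1.30 and 2.14 CPM in Trp/Trp kidneys (30 to 72 counts). The second Trp/Trp kidney lay below the first Arg/Arg kidney, so the groups overlapped. Ccl5 had a log2 fold change of 0.68 ± 0.32, the smallest of the 10, and 0.57 ± 0.35 without the first Trp/Trp library.

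edgeR's quasi-likelihood test, with Benjamini-Hochberg adjustment, called 0 of the 10 genes and 0.0% of the 14464 tested, with adjusted p of 0.843 for 8 genes and 0.848 for Cd3e and Cd3g. Over all genes, 826 had an unadjusted edgeR p under 0.05, and DESeq2 called 15 of 15357 (0.0977%). Unadjusted, 6 of the 10 had p under 0.05 and a higher Trp/Trp level (Cd3d, Cd8a, Lck, Il2rb, Il2ra and Nkg7), against 3.68% of all genes tested. Positive differences were found for 10 of 10, against 50.6%. The Trp/Trp libraries lay above all the Arg/Arg libraries for 5 of the 10 (Cd3d, Cd8a, Lck, Il2rb and Il2ra), against 6.59%. Because the members and the other gene lists were chosen with earlier results of these data known, such shares describe them and do not test them. For 1 gene alone, an exact two-sided permutation test of 3 against 3 cannot give a p below 0.1.

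Replicates of these genes were variable. Their biological coefficients of variation in edgeR were 0.182 to 0.401, all above the common value of 0.101 over all genes. That value covers genes of every level. Genes of like low level were not compared, so this spread is not shown to be particular to these genes. The lowest were those of Cd8a (0.182), Il2rb (0.184) and Cd3d (0.205), and the highest was that of Cd4 (0.401).

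The first Trp/Trp kidney was the highest of the 6 for 9 of the 10 genes, whereas it was the highest for 35.0% of all genes tested. It held 31.6% of the summed CPM of the 10 genes over the 6 kidneys, where an even share would be 16.7%, and 47.3% of the Trp/Trp sum. Its share by gene ran from 23.4% for Ccl5 to 40.8% for Cd4. Summed over the 10 genes, the Arg/Arg kidneys had 10.5, 7.82 and 8.50 CPM and the Trp/Trp kidneys 25.4, 13.5 and 14.8 CPM. The remaining Trp/Trp kidneys were therefore still above the Arg/Arg range on the sum.

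Without that library, 3 of the 10 genes had an unadjusted edgeR p under 0.05 and a higher Trp/Trp level (Cd3d, Cd8a and Il2rb), against 2.76% of 14518 genes, and 0 were called. The fitted log2 fold change was positive for 10 of 10, against 50.4%, but for Cd3e and Cd3g the plain mean CPM of the remaining Trp/Trp libraries was slightly below that of Arg/Arg (ratios of 0.972 and 0.984). The groups were free of overlap for 5 of the 10, against 10.2% of all genes; leaving out a library cannot create overlap, so these are necessarily the 5 named above. The 4 that lost at least 50% of their difference were Cd3e (89.5%), Cd3g (92.7%), Cd4 (74.1%) and Lck (56.5%), and the other 6 lost 8.20 to 31.1%.

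**Figure D2:**
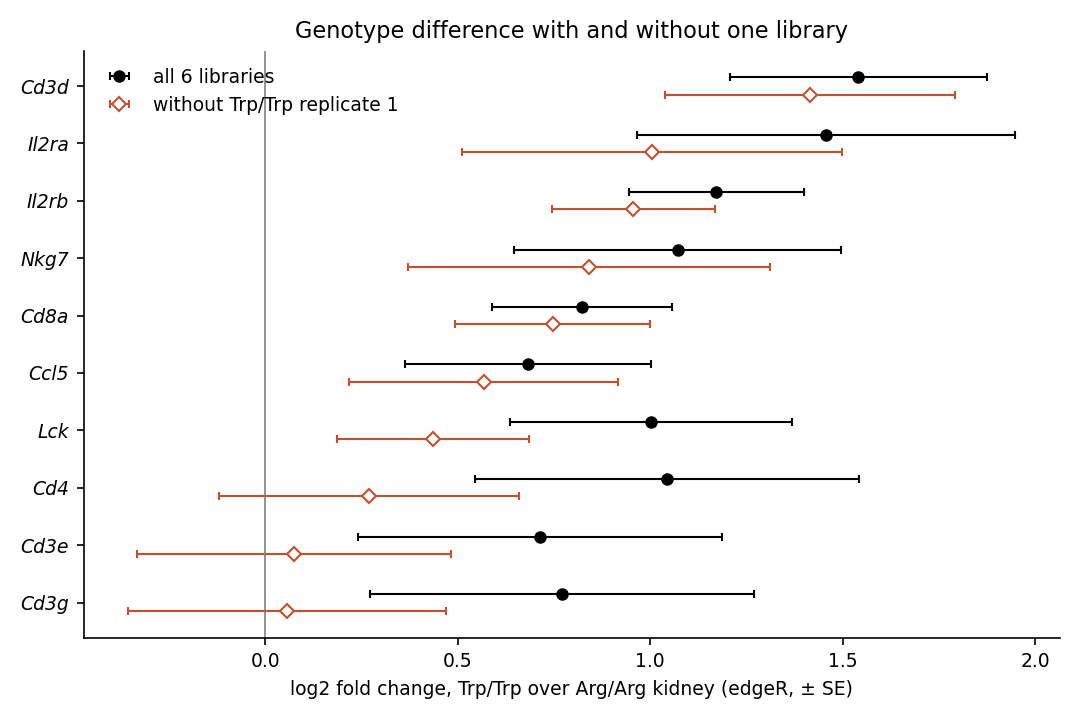
Log2 fold change (Trp/Trp over Arg/Arg kidney, edgeR) of the 10 genes, with bars of 1 SE, over all 6 libraries (filled) and without the first Trp/Trp library (open). Cd3d moves from 1.54 to 1.41, whereas Cd3g moves from 0.77 to 0.06 and Cd3e from 0.71 to 0.07.

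Per kilobase of exon, Ccl5 had the highest level over the 6 kidneys, 1.54 ± 0.564 CPM per kb (SD, n = 6). Nkg7 (0.813 ± 0.440), Lck (0.677 ± 0.418), Cd8a (0.620 ± 0.209) and Il2rb (0.619 ± 0.301) followed. The lowest levels per kilobase were those of Cd3d (0.359 ± 0.209), Cd4 (0.331 ± 0.244), Cd3g (0.301 ± 0.194), Cd3e (0.168 ± 0.102) and Il2ra (0.116 ± 0.0834). Neighbours in this order lay closer than the smaller of their SDs, except Ccl5 and Nkg7, Il2rb and Cd3d, and Cd3g and Cd3e. On the Arg/Arg libraries alone, Cd3g (0.226 CPM per kb) was above Cd4 (0.216), Cd3d (0.177) was below both, and the other genes kept their order. The lengths are the union of all annotated exons, which lowers the value of genes with many isoforms.

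Other T cell receptor and signalling genes gave 16 positive differences among 18 tested, with a median log2 fold change of 0.64, or 0.26 without the first Trp/Trp library. edgeR called 0 of them, and 7 had an unadjusted p under 0.05 with a higher Trp/Trp level, against 3.68% of all genes tested. The 7 include Cd8b1, which passed the low-count filter through its Trp/Trp libraries only, so it adds nothing to this comparison. The 4 most abundant were Fyn, a kinase related to LCK (14.7 ± 1.80 and 18.8 ± 2.07 CPM in Arg/Arg and Trp/Trp, log2 fold change 0.33), Rasgrp1 (0.06), the kinase gene Prkcq (-0.13) and the phosphatase gene Ptpn22 (0.26). These abundant genes are also expressed outside T cells.

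The partner chains of the receptors, picked after their values were seen, differed among themselves. Cd8b1, the beta chain of CD8, had 0.287, 0.0800 and 0.0335 CPM in Arg/Arg and 0.434, 0.519 and 0.562 CPM in Trp/Trp kidneys, on 1 to 22 counts. It was above the level of the low-count filter in the Trp/Trp libraries only, so its groups had to differ once it passed. Cd247, the CD3 zeta chain, had 0.415, 0.640 and 0.468 CPM in Arg/Arg and 0.954, 0.307 and 0.394 CPM in Trp/Trp kidneys, so Trp/Trp kidneys 2 and 3 were the lowest of all. Its log2 fold change was 0.09 ± 0.46 with the first Trp/Trp library and -0.62 ± 0.43 without it. Il2rg, the gamma chain that works with Il2rb, had 2.52, 2.04 and 2.01 CPM in Arg/Arg and 3.27, 1.46 and 2.14 CPM in Trp/Trp kidneys. Its log2 fold change was 0.04 ± 0.29, far from the 1.17 of Il2rb.

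Genes of T cell development, homing and regulation had 11 positive differences among 12 tested, 0 with an unadjusted p under 0.05, and a median log2 fold change of 0.37 that was 0.05 without the first Trp/Trp library. Among the most abundant were S1pr1 (0.14), Gata3 (0.19) and Bcl11b (0.14), several of which kidney cells use as well. NK cell and cytotoxic genes had 6 positive differences among 7 tested and a median of 0.49, or 0.15 among 8 without that library. Of these, Klrd1, the NK receptor CD94, was the only one with an unadjusted edgeR p under 0.05, at a log2 fold change of 1.45 ± 0.47. The most abundant were Ctsw (0.49, or -0.06 without that library), Klrk1 (0.25), Il18rap (0.49) and Txk (-0.10).

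The interleukin 2 and 15 receptor system beyond the members was centred near 0, with 6 positive differences among 10 tested and a median of 0.02. Its most abundant genes are the signal carriers Jak1 (-0.04), Stat5b (-0.06) and Stat5a (-0.06), which most cells express, and Jak3 (0.06). T cell chemokines and receptors had positive differences for 9 of 9 tested, with a median of 0.69, or 0.17 without the first Trp/Trp library. Ccr2, a monocyte and T cell receptor for CCL2, had 4.44 ± 0.487 CPM in Arg/Arg and 8.32 ± 2.89 CPM in Trp/Trp kidneys (SD, n = 3 each; log2 fold change 0.88, or 0.62 without that library). Ccl2 also had an unadjusted edgeR p under 0.05, at 1.39 ± 0.41. Cxcl16 (0.03) and Cxcl10 (0.28) were also among the abundant ones.

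Markers of other cells were also high in the first Trp/Trp kidney. The summed B and plasma cell markers reached 104 CPM there and 8.55 to 10.4 CPM in the other 5, mainly through Jchain, the immunoglobulin joining chain, at 75.8 CPM against 1.47 to 3.10 CPM. Lymph node and lymphoid stroma markers summed to 46.5 CPM there and 27.8 to 31.0 CPM elsewhere, with 6 of 7 differences positive. Perirenal fat markers had 8 of 9 positive differences and a median of 1.69, or 0.34 without that library. Their sum was 928 CPM in the first Trp/Trp kidney and 688 to 869 CPM in the other 5. Most of that sum was Lpl, at a mean of 656 CPM, and it went the other way (log2 fold change -0.22). Fabp4, the next in abundance, had 154 CPM in the first Trp/Trp kidney and 68.7 to 86.3 CPM in the other 5. The part of these markers in the members' results was not tested.

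Macrophage and dendritic cell markers were also higher on average in Trp/Trp kidneys. Resident macrophage markers had 15 of 16 positive differences, 9 with an unadjusted edgeR p under 0.05, and a median of 0.56, or 0.30 without the first Trp/Trp library. Their sum was 251 to 272 CPM in Arg/Arg and 287 to 383 CPM in Trp/Trp kidneys. Over all kidney genes tested, 50.6% of differences were positive and 3.68% were higher in Trp/Trp at that p. Dendritic cell markers had 10 of 11 positive differences, a median of 0.60, or 0.34 without that library, and sums of 40.4 to 42.1 and 48.9 to 77.6 CPM. Medians for the kidney's own cells were near 0, at 0.01 for proximal tubule, -0.03 for distal nephron and 0.10 for endothelial markers. Neutrophil and mast cell markers had a median of -0.07 over 3 genes tested.

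**Figure D3:**
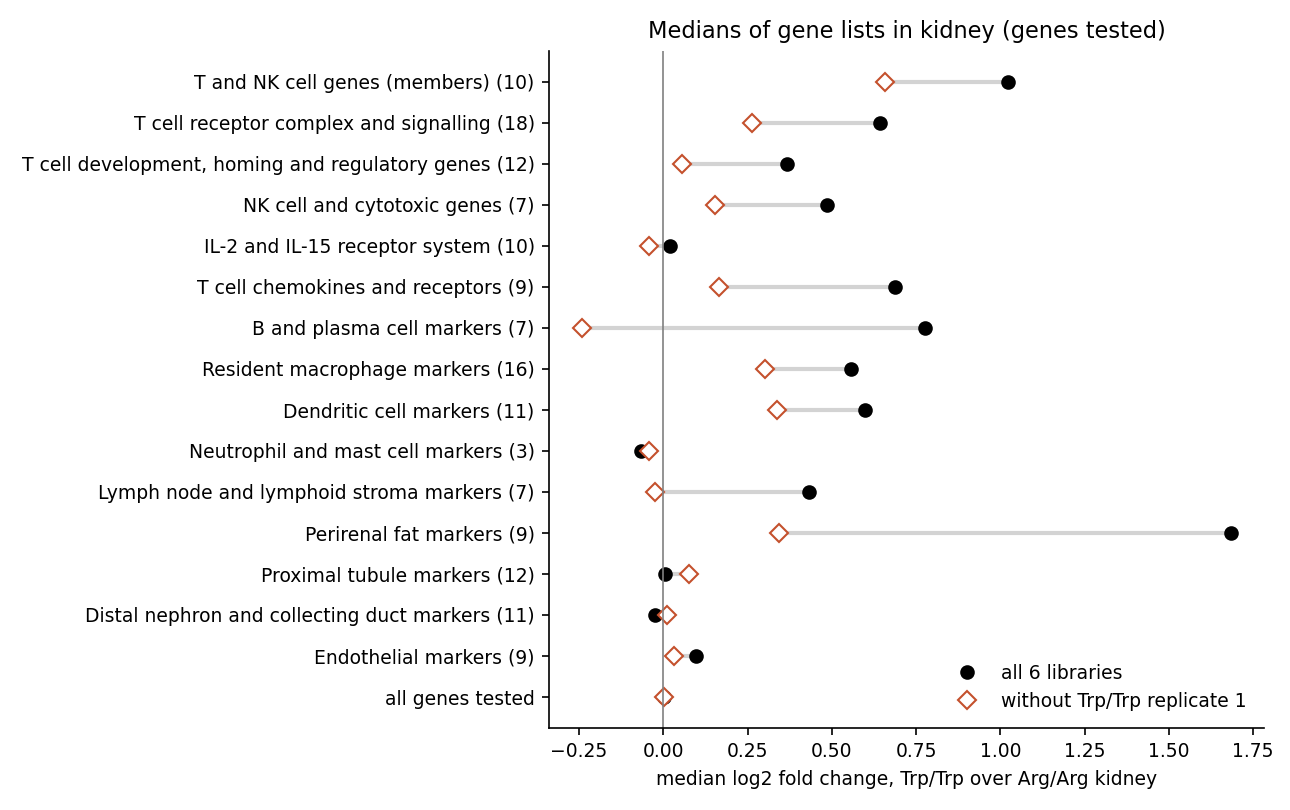
Median log2 fold change (Trp/Trp over Arg/Arg kidney) of each gene list over all 6 libraries (filled) and without the first Trp/Trp library (open), with the number of genes tested in brackets. The 10 T and NK cell genes keep 0.66 of 1.02 without that library, while B and plasma cell markers go from 0.78 to -0.24.

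The 5 other genes nearest to the mean profile of the 10 over the 6 kidneys were found by the root mean square difference in centred log2 CPM. They were Cd52, a surface glycoprotein of lymphocytes and monocytes (0.0751), the integrin gene Itgb7 (0.103), the inhibitory receptor gene Btla (0.110), the chemokine receptor gene Xcr1 (0.132) and the pore-forming protein gene Mpeg1 (0.141). Cd52 had 3.89, 3.08 and 3.01 CPM in Arg/Arg and 10.4, 4.84 and 6.35 CPM in Trp/Trp kidneys. Among the members, Il2rb lay nearest to their own mean (0.158) and Il2ra farthest (0.622). Xcr1 is on the dendritic cell list used here and Mpeg1 on the resident macrophage list, and both lay nearer to that mean than any member. The profile is thus not particular to T and NK cell genes. The mean profile puts the first Trp/Trp kidney 1.10 above the centre, the other 2 Trp/Trp kidneys 0.11 and 0.27 above it, and the Arg/Arg kidneys 0.23 to 0.63 below it.

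In F4/80+ cells only Cd8a had enough counts to be tested for genotype. These 6 libraries had 35883980 to 51603745 counts, but 70.1 to 83.6% were mitochondrial, which left 6879337 to 11143970 on nuclear protein-coding genes. Cd8a had 7.41, 1.52 and 1.66 CPM in Arg/Arg and 6.82, 2.35 and 5.12 CPM in Trp/Trp cells (12 to 76 counts). The first library of each genotype was the highest of its group, and the genotypes overlapped. The log2 fold change was 0.45 ± 0.59, with an edgeR adjusted p of 0.928, where edgeR called 0.0% of genes. DESeq2 called 0.226% of the genes to which it gave an adjusted p, and gave none to Cd8a, Cd4 or Ccl5. It was 0.01 without the first Trp/Trp library and 1.37 without the first Arg/Arg library.

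Cd4 had 1.16, 0.126 and 0 CPM in Arg/Arg and 0.808, 0.587 and 1.44 CPM in Trp/Trp F4/80+ cells, on 0 to 11 counts. A count of 0 in the third Arg/Arg library allows up to 0.294 CPM at 3 counts, or 0.361 CPM by the upper bound of the exact interval. Ccl5 had 0.436, 0.505 and 0.196 CPM in Arg/Arg and 0.987, 0.587 and 0.394 CPM in Trp/Trp cells, on 2 to 11 counts. Both genes were under the low-count filter within this table. Fitted by edgeR without the filter, the log2 fold change was 1.18 ± 0.98 for Cd4 and 0.71 ± 0.78 for Ccl5, with adjusted p of 0.817 and 0.880. Without the first Arg/Arg library Cd4 passed the filter, at 3.57 ± 1.25 and an edgeR adjusted p of 0.159, so its value there rested on that library.

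The F4/80+ preparations were mixed by their markers. Adgre1, the gene of F4/80, had 10.8, 1.26 and 2.05 CPM in Arg/Arg and 2.15, 11.5 and 16.7 CPM in Trp/Trp cells, and tubule markers were abundant. Distal nephron markers summed to 5589 to 14237 CPM in Arg/Arg and 11735 to 20477 CPM in Trp/Trp cells. Proximal tubule markers summed to 23934 to 48852 CPM in Arg/Arg and 15436 to 28938 CPM in Trp/Trp cells, with 0 of 12 differences positive and 7 at an unadjusted edgeR p under 0.05. Over all 15225 genes tested there, 7781 had a positive difference and 550 were lower at that p. Dendritic cell markers, some of whose cells carry Cd8a, summed to 23.3, 14.4 and 14.8 CPM in Arg/Arg and 28.7, 23.6 and 20.7 CPM in Trp/Trp cells. The libraries with the most Cd8a were the first Arg/Arg and the first Trp/Trp library, and Adgre1 was high in one and low in the other. The part of other cell types in these values was not tested.

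A joint fit of all 12 libraries over 13578 genes held by both tables compared F4/80+ cells with kidney, where 32.3% of genes were called higher and 32.0% lower in F4/80+ cells. Ccl5 was lower in F4/80+ cells, at a log2 fold change of -1.38 ± 0.35 and an edgeR adjusted p of 0.00362. Cd8a was higher, at 1.01 ± 0.35 and an adjusted p of 0.0219. That call was lost in edgeR without Arg/Arg kidney replicate 2 (adjusted p 0.0556), without Arg/Arg F4/80+ replicate 1 (0.129, log2 fold change 0.53) and without Trp/Trp F4/80+ replicate 1 (0.0665). Cd4 did not pass, at -0.96 ± 0.57 and an adjusted p of 0.154, but passed without Arg/Arg F4/80+ replicate 1, at -2.24 and 0.0163. The tables may have been counted and filtered differently, and sample type and preparation cannot be told apart.

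The same fit tested whether the genotype difference itself differed between F4/80+ cells and kidney, and edgeR called 0.0% of genes. The difference was -0.41 ± 0.70 for Cd8a (adjusted p 0.955), 0.06 ± 0.67 for Ccl5 (0.992) and 0.14 ± 1.13 for Cd4 (0.988) on the log2 scale. For all 3 genes the standard error was larger than the estimate.

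**Figure D4:**
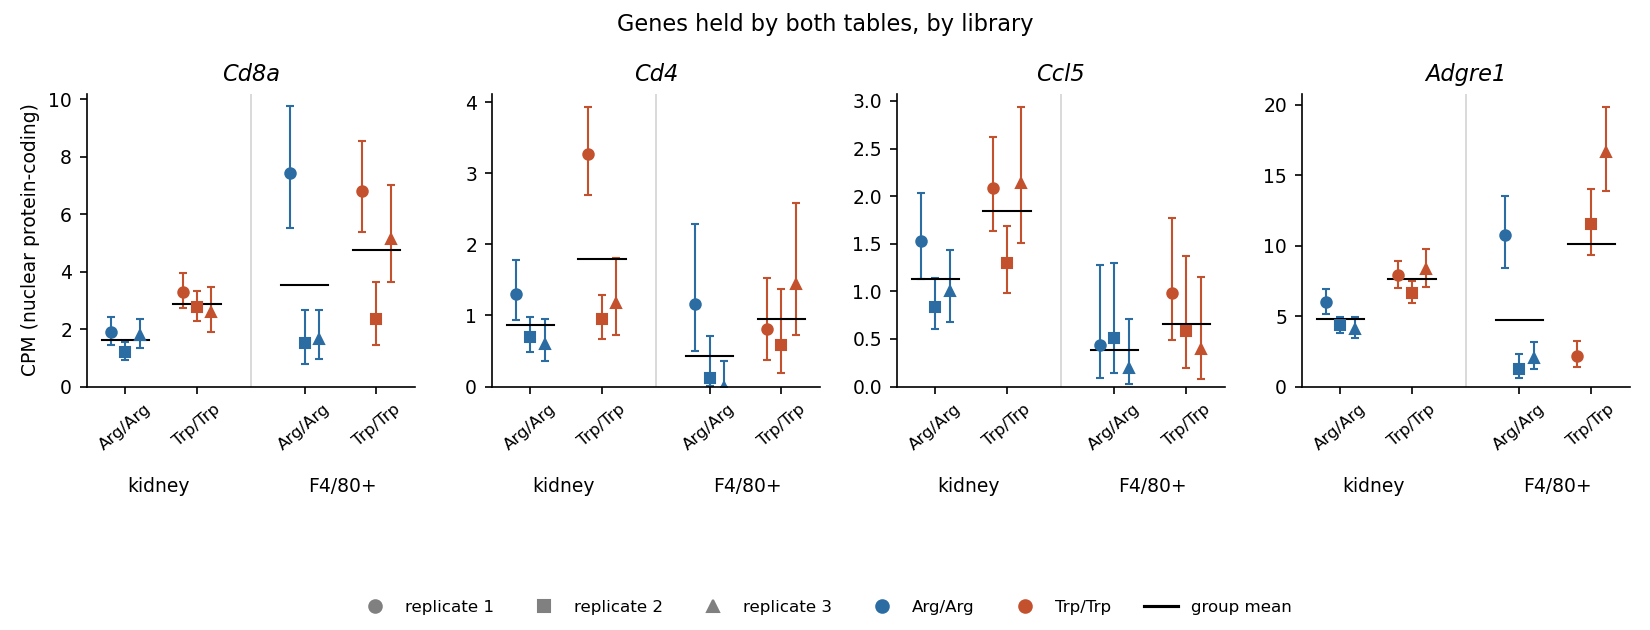
Levels of Cd8a, Cd4, Ccl5 and Adgre1 in the 6 kidney and 6 F4/80+ libraries, in CPM over nuclear protein-coding counts on linear axes that start at 0. Points are libraries with exact 95% Poisson intervals and black lines are group means. Cd8a runs from 1.20 to 3.30 CPM in kidney and from 1.52 to 7.41 CPM in F4/80+ cells, whereas Cd4 and Ccl5 reach their highest points in kidney.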

How the data were processed

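Poly(A) RNA libraries of 6 whole kidneys and 6 F4/80+ cell preparations were given as 2 tables, 1 per sample type. Raw counts per gene, normalised values (signal), log2 fold changes, fold values (ratios), test scores and p-values are as deposited by the authors; per the submitters' processing notes, STAR, DRAGEN, DESeq2 and the mm10 build were used, without versions or roles. The analysis used the raw counts, and p-values and log2 fold changes were taken from the authors' deposited table only where named. CPM is counts per 1000000 nuclear protein-coding counts.

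Each table was tested whole with edgeR 4.0.16 in R 4.3.3 (filterByExpr with a minimum count of 10 in 3 libraries, TMM, glmQLFit, glmQLFTest), with Benjamini-Hochberg adjustment over all genes tested and a threshold of 0.05. SE is the absolute log2 fold change divided by the square root of F. The joint fit took genes held by both tables. DESeq2 1.42.0, other scaling, no filter, protein-coding library sizes, a replicate block and leaving out each library were alternatives, and DESeq2 without each kidney library was added after seeing the data. The scripts were tested on simulated counts with 200 changed genes.

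The members and lists were chosen with earlier results of these data known. Named besides the members were the 4 most abundant kidney genes of each T or NK cell list, the 2 most abundant of each other list (given here where a result turns on them), the 5 nearest to the members' mean profile (log2 CPM with 0.5 counts added), Sh2b3 and Adgre1; the few others were picked after their values were seen. Some genes that this rule names are not reported here. Replicate numbers did not pair the samples. P-values weigh a difference between groups against the spread between these libraries.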

Additional observations from a re-analysis of the deposited data

How the results depend on the processing

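The members' median log2 fold change in kidney stayed between 0.66 and 1.26 with each library left out, and the low counts of these genes limit every single value. In kidney, DESeq2 called 15 genes where edgeR called 0, and 1 to 56 with 1 library left out (21, 1 and 40 without Arg/Arg replicates 1, 2 and 3, and 16, 56 and 21 without Trp/Trp replicates 1, 2 and 3). It called 1 member (Il2rb), and 0 to 1 with 1 library left out. In F4/80+ cells DESeq2 called 14 genes where edgeR called 0, and gave the 3 members held there no adjusted p; the authors' deposited table calls 20 of 5431 with an adjusted p, under settings not given in the sources used here. For the genotype difference between sample types, DESeq2 called 7 genes, and edgeR 0 to 580 with 1 library left out, the 580 without Arg/Arg F4/80+ replicate 1 and 1 without Trp/Trp F4/80+ replicate 1. The F4/80+ against kidney count ran from 8099 to 9265. The cause of these changes was not tested. The difference of genotype differences changed sign with 1 library left out: Cd8a ran from -0.80 to 0.55, Ccl5 from -0.42 to 0.42 and Cd4 from -0.52 to 2.69, none past the threshold. Same-numbered replicates did not deviate together (correlations of -0.08, -0.02 and -0.01 in kidney and -0.31, -0.49 and 0.18 in F4/80+ cells). With the replicate number as a block, edgeR called 0 genes in either table, 691 kidney genes had an unadjusted p under 0.05 in place of 826, 700 F4/80+ genes in place of 1224, and the members' median in kidney was 0.89. The block gave 0.56 for Cd8a in F4/80+ cells.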
